A study of Mus musculus with 17 samples.

Results

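The genes described here are the enzymes that place, keep and remove methyl groups on cytosine in DNA, together with their closest helpers. They are the maintenance pair Dnmt1 and Uhrf1, the de novo group Dnmt3a, Dnmt3b and Dnmt3l, the oxidases Tet1, Tet2 and Tet3, and the glycosylase Tdg. Members were chosen by gene symbol, as every probe annotated to 1 of these 9 genes. The array of 25697 probes, which name 16593 genes, held 13 such probes for 7 of the 9 genes. Tet1 and Tet2, to which the probe table used here assigns no probe, are not analysed here. Of the 13 probes, 8 were detected on at least 1 array and were tested, for the 5 genes Dnmt1, Uhrf1, Dnmt3b, Dnmt3l and Tdg. The other 5 probes, both of Dnmt3a, both of Tet3 and the second of Tdg, stayed below background on all 17 arrays.

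Total RNA of 17 mouse samples was labelled with biotin and hybridised to Illumina BeadArrays, with 1 array per condition. Cells with tetracycline-controlled Oct4 (the pluripotency factor encoded by Pou5f1) were of 3 origins, neural stem cells (NSC), embryonic fibroblasts (MEF) and cells of bone marrow (BMC). The 4 arrays of each origin cover the times 0, 6, 12 and 24 h. Controls without the transgene comprised untreated and 24 h treated cells of the MEF and NSC kinds, with no array of wild-type BMC, and 1 array of untreated embryonic stem cells (ESC) served as the pluripotent reference. The strain, the age and number of animals, the promoter of the transgene and the inducing compound are not given in the labels, nor is whether the wild-type cells carry a tetracycline-responsive activator. The labels call the 0 h arrays of the transgenic lines treated. For the treated wild-type MEF array the title and the time label give 24 h and the source name another number, so its time, and with it every value net of the wild-type trend in MEF, is in some doubt. Here 0 h is read as the start of induction, from the sample titles.

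On dividing DNA, Uhrf1 binds the half-methylated sites left by replication and brings in Dnmt1, which copies the methyl mark onto the new strand. Dnmt3a and Dnmt3b set marks at new sites, and Dnmt3l, which has no catalytic activity of its own, assists them in germ cells and early embryos. Tet enzymes oxidise methylcytosine, and Tdg cuts out the oxidised forms, which base excision repair then replaces with cytosine.

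Each array detected 39.8 to 43.1% of its probes at a detection p under 0.01. Raw intensity averaged 382 to 437 on the 4 transgenic MEF arrays and 548 to 672 on the other 13. Pou5f1 was not detected on any wild-type array and, in the transgenic cells, rose from a log2 level of 8.41 to 14.49 in MEF, from 5.07 to 10.22 in NSC and from 5.04 to 10.85 in BMC between 0 and 24 h; ESC stood at 12.94. Marker genes followed the labels at 0 h for 6 of 7 fibroblast markers in transgenic MEF (Postn not detected) and for 5 of 6 neural stem markers in transgenic NSC (Pax6 not detected). BMC carried 5 of 6 bone marrow markers (Cd34 not detected), all 3 macrophage markers and 4 of 7 fibroblast markers. The transgenic NSC array at 0 h also detected 3 of the 8 ESC markers.

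All levels below are log2 intensities after background correction and quantile normalization, and a difference of 1 is a doubling. Because no condition was repeated, a single difference has no test, and levels of different probes are not set against each other. Changes were tested with limma as a straight line over hours, fitted to the 16 somatic arrays with 1 slope per transgenic cell type. The value given is the fitted change over 24 h with the standard error of the fit, with p-values adjusted over all 15543 tested probes (Benjamini-Hochberg). The fitted change uses all 4 times, so it can differ from the measured difference between 24 and 0 h. The error is the scatter of single cultures around these lines and between the wild-type arrays, so p-values do not measure the spread between repeat cultures. A step (0 h against the mean of the later times) was the alternative form of the test, and by limma 0 of the 8 tested member probes passed it in MEF, NSC or BMC. At an unadjusted p under 0.05 the step called 1 of them in MEF, 1 in NSC and 0 in BMC. Of all 15543 probes it called 1439, 1316 and 346 at that cut. After adjustment the step passed 0.193% of all probes in MEF, 0.206% in NSC and 0.0322% in BMC. As a difference between cell types it passed 0 member probes, against 0.0129% of all probes for NSC with MEF and 0.0322% for NSC with BMC. Net of the wild-type trend, 0 member probes passed in MEF, 2 in NSC and 0 in the contrast of NSC with MEF, against 1.14, 8.37 and 0.476% of all probes.

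The maintenance pair fell in NSC. Uhrf1 and Dnmt1 both dropped between 6 and 12 h of Oct4 induction in transgenic NSC and were lower again at 24 h, whereas neither passed the test in MEF or BMC. In NSC, 2 of the 8 tested member probes passed, both downward, against 23.3% of all probes passing in either direction and 11.4% passing downward. Over both directions the members' share is near the background. The size of the changes sets them further out: 39 of the 15543 probes had a more negative fitted change than Uhrf1 in NSC, and 189 a more negative one than Dnmt1.

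Uhrf1, the reader of half-methylated DNA, lies on chromosome 17. Its first probe was detected on all 17 arrays. In transgenic NSC its level was 12.25 at 0 h, 12.11 at 6 h, 10.26 at 12 h and 8.50 at 24 h. The 24 h level was the lowest of the 17 arrays and 13.5-fold below 0 h. Wild-type NSC stood at 11.64 untreated and 11.77 after 24 h of treatment. In transgenic MEF the levels were 11.48, 11.54, 11.59 and 11.21 at 0, 6, 12 and 24 h, and wild-type MEF had 10.94 and 11.12. The 6 MEF arrays thus lay between 10.94 and 11.59, above both late NSC arrays. Transgenic BMC were at 9.84, 9.64, 9.89 and 10.65, highest at 24 h, and ESC were the highest of all at 12.76.

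The fitted change of Uhrf1 over 24 h was -4.04 ± 0.36 in NSC (limma, SE of the fit, adjusted p = 3.97e-05). In MEF it was -0.28 ± 0.36 (95% interval -1.06 to 0.49, limma adjusted p = 0.702). In BMC it was 0.91 ± 0.36 (95% interval 0.14 to 1.69, limma unadjusted p = 0.0248, adjusted p = 0.672). The contrasts in the same fit gave NSC minus MEF -3.75 ± 0.51 (limma adjusted p = 0.00112) and NSC minus BMC -4.95 ± 0.51 (limma adjusted p = 0.000264). Subtracting the wild-type trend gave -4.16 in NSC (limma adjusted p = 0.00614) but left the contrast of NSC with MEF at -3.69 and a limma adjusted p of 0.0741. Leaving out the BMC array at 24 h, the contrast of NSC with BMC was -4.14 with a limma adjusted p of 0.0980. The second Uhrf1 probe was detected on the ESC array alone, at 6.08, and its somatic values of 4.42 to 4.92 carry no measured level.

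Dnmt1, the maintenance methyltransferase, lies on chromosome 9 and had 1 probe, detected on all 17 arrays. Its levels in transgenic NSC were 10.28, 10.22, 8.38 and 7.76 at 0, 6, 12 and 24 h, a 5.74-fold lower level at 24 h than at 0 h. The 2 later arrays were the lowest of the 17. Wild-type NSC had 9.64 untreated and 9.86 treated. Transgenic MEF had 9.22, 9.35, 9.26 and 8.67, wild-type MEF 9.03 and 9.06. In MEF the transgenic 24 h array was therefore the lowest, and the other 5 lay between 9.03 and 9.35. Transgenic BMC stayed between 9.52 and 9.60, and ESC stood at 10.17, just under transgenic NSC at 0 h.

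The fitted change of Dnmt1 in NSC was -2.79 ± 0.38 (limma adjusted p = 0.00033). It was -0.61 ± 0.38 in MEF (95% interval -1.43 to 0.22, limma adjusted p = 0.365) and 0.05 ± 0.38 in BMC (95% interval -0.78 to 0.87). The change in NSC was more negative than in MEF by -2.18 ± 0.54 (limma adjusted p = 0.0213) and than in BMC by -2.83 ± 0.54 (limma adjusted p = 0.00612). Net of the wild-type trend, the NSC change was -3.01 (limma adjusted p = 0.0168) and the contrast of NSC with MEF -2.37 (limma adjusted p = 0.210). That contrast also missed the threshold when 1 of 3 arrays was left out, namely MEF at 0 h (-1.83, adjusted p = 0.124), MEF at 24 h (-2.88, adjusted p = 0.0914) or NSC at 24 h (-3.20, adjusted p = 0.0685, all limma), and the contrast with BMC missed it without BMC at 24 h (-2.74, limma adjusted p = 0.305). The NSC change itself passed in each of the 16 fits that left out 1 array, for Uhrf1 (-4.63 to -3.75) and for Dnmt1 (-3.81 to -2.52).

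**Figure D1:**
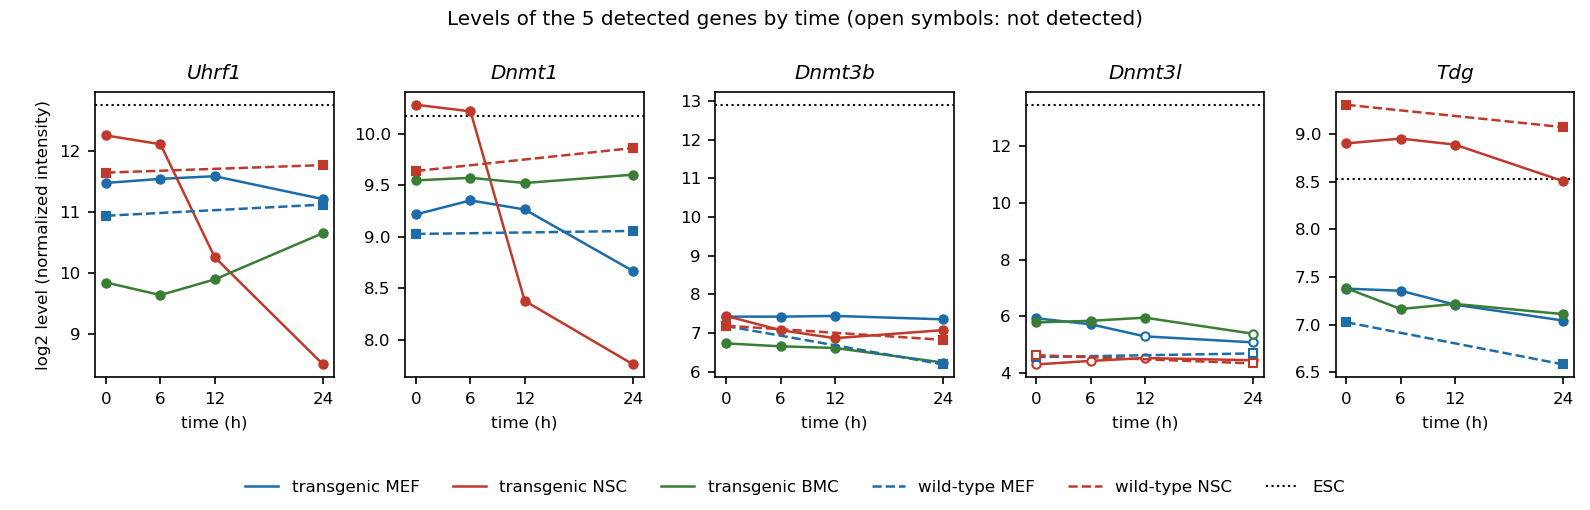
Log2 level of the first probe of each detected gene against hours of induction, with 1 array per point, solid lines for transgenic and dashed lines for wild-type cells, a dotted line for the ESC array and open symbols for arrays that did not detect the probe. Uhrf1 falls from 12.25 to 8.50 and Dnmt1 from 10.28 to 7.76 in transgenic NSC, while the wild-type NSC points lie at 11.64 and 11.77 and at 9.64 and 9.86; each panel has its own vertical scale, which does not start at 0.

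The promoters of these 2 genes are shown because both genes fell in NSC and because E2F factors, which read such promoters, drive many genes of S phase. They are reference sequence from RefSeq, build GRCm38.p6, spanning 250 bases before to 50 bases after an annotated start, and for each gene the annotated start with the most CpG sites was taken. Capitals mark matches, on either strand, to 1 of 4 spellings of the E2F motif that were searched: TTTCCCGC, TTTGGCGC, TTTGCCGC and TTTCGCGC. The Dnmt1 promoter is chr9:20952574-20952873 on the minus strand, and the Uhrf1 promoter is chr17:56304063-56304362 on the plus strand. Neither window lies at the outermost annotated start of its gene.
Dnmt1: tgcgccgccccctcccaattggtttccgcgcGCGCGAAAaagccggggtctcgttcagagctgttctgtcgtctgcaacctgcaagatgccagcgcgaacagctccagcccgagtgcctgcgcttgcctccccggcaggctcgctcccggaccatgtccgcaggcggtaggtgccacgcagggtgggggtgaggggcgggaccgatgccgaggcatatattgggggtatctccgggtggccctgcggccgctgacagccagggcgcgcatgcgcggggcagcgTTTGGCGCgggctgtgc
Uhrf1: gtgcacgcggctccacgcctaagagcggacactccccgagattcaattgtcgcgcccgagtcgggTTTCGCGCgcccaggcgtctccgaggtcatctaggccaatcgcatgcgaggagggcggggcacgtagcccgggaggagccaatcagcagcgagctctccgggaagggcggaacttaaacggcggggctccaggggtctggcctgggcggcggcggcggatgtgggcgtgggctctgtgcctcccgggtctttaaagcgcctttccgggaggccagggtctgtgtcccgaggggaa
Dnmt1 held TTTCGCGC on the opposite strand, starting 219 bases before the start site, and TTTGGCGC at position 34 after it. Uhrf1 held TTTCGCGC 185 bases before its start. The word was present at 1 of 3 annotated Dnmt1 starts and 1 of 2 annotated Uhrf1 starts, and in 2.26% of all 32851 promoters in the table. Each of these 2 promoters held 33 CpG sites, more than 91.4% of promoters, but each was picked for having the most CpG sites of its gene. The other Dnmt1 starts held 2 and 12 (more than 14.1 and 60.4% of promoters) and the other Uhrf1 start 12 (60.4%). Among the tested S phase genes with an annotated start, 7 of 18 (38.9%) had the word at 1 start or more, against 2.6% of all genes. Among the tested mitosis genes with an annotated start it was 1 of 5 (20%). Every spelling searched holds a CG, and these shares were not matched for CpG content. The part of E2F factors in the NSC values was not tested. A match of letters is a description and shows no binding.

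The 20 tested S phase genes, a list of replication enzymes and licensing factors chosen with earlier results of these data known, moved in the same direction as the maintenance pair in NSC. All 20 passed the trend test downward there, against 11.4% of all probes. Their median fitted change was -3.57 (range -5.56 to -2.27), against a median of 0.01 over all probes. The median measured differences from 0 h were -0.26 at 6 h, -2.27 at 12 h and -3.33 at 24 h, and the wild-type NSC pair gave 0.30. The largest fitted changes were those of Tk1, the thymidine salvage kinase, at -5.56, of the replicative helicase subunit Mcm5 at -4.75 and of the ribonucleotide reductase subunit Rrm2 at -4.63. The 6 tested mitosis genes all passed downward as well, with a median of -4.01, led by the mitotic kinase Cdk1 (-4.38), Top2a (-4.14) and Cdc20 (-4.05). In MEF, 1 of the 20 S phase genes passed (Mcm7, a helicase subunit, -1.09, limma adjusted p = 0.0466) and the median was -0.50. That share is near the background, since 4.89% of all probes passed downward in MEF. The Mcm7 call held in 3 of the 16 fits that left out 1 array (-1.39 to -0.22, the latter without the 24 h array, limma adjusted p = 0.959) and was lost net of the wild-type trend (limma adjusted p = 0.219). In BMC 0 of 20 passed by limma, against 0.772% of all probes, and the median was 0.72. At an unadjusted p under 0.05 it was 6 of 20, against 909 of all 15543 probes.

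Uhrf1, at -4.04, lay within the range of the S phase genes in NSC, and Dnmt1, at -2.79, lay toward its upper end. In BMC the Uhrf1 value of 0.91 was close to the S phase median and the Dnmt1 value of 0.05 was near 0. Over the 16 somatic arrays the levels of Uhrf1 and Dnmt1 had a Pearson correlation of 0.627, a description over arrays that share cell lines and time courses. The 3 genes whose level over all 17 arrays was most like Uhrf1 by Pearson correlation were Cdk1 (0.977), Sgo1 (0.971) and Kif18b (0.970). For Dnmt1 they were Espl1 (0.896), Mcm6 (0.889) and Uchl5 (0.887). The summed level of the 6 neural stem markers in transgenic NSC was 27065 to 29882 intensity units across the 4 times, most of it from the glutamate transporter Slc1a3. The 5 others summed to 3142, 2627, 3133 and 2109 units at 0, 6, 12 and 24 h, against 4557 and 6169 in untreated and treated wild-type NSC. Fabp7, a fatty acid binding protein of neural progenitors, read 9.71 at 0 h and 8.16 at 24 h. The intermediate filament gene Nes read 10.52 and 9.76. Wild-type NSC had 10.05 and 11.18 for Fabp7 and 10.95 and 11.10 for Nes. The other detected neural stem markers were higher at 24 h than at 0 h in transgenic NSC. Sox2 went from 9.04 to 9.13, Olig2 from 8.16 to 8.56 and Slc1a3 from 14.58 to 14.76. One of 5 astrocyte and oligodendrocyte markers was detected on each of the 4 transgenic arrays, and the part of these markers in the Uhrf1 and Dnmt1 values was not tested. In RNA from whole cultures, fewer dividing cells and less RNA per cell cannot be told apart.

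**Figure D2:**
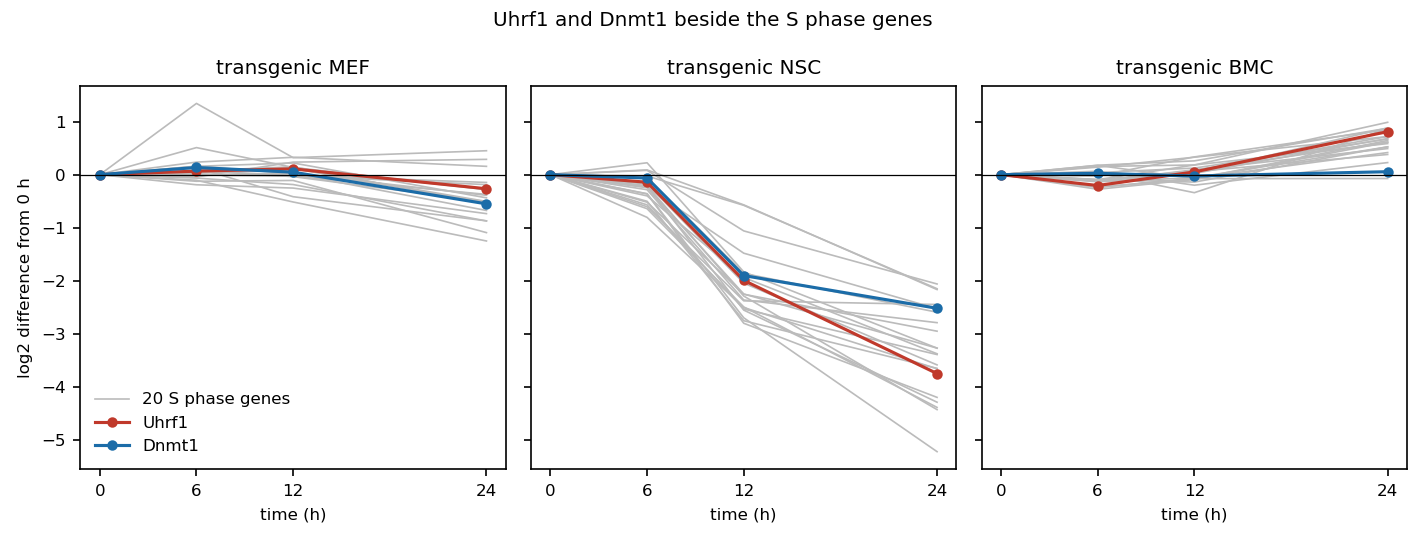
Log2 difference from 0 h of the same line against hours for Uhrf1 (red), Dnmt1 (blue) and the 20 tested S phase genes (grey), with 1 array per point. In NSC the median of the grey lines is -2.27 at 12 h and -3.33 at 24 h with Uhrf1 at -3.75 and Dnmt1 at -2.52 at 24 h, and in BMC Dnmt1 stays near 0 while Uhrf1 rises with the grey lines.

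Among the de novo enzymes, Dnmt3b and Dnmt3l marked the ESC array and were low in all somatic cells, with and without Oct4. Of the 8 tested member probes, 5 were at least 2-fold higher in ESC than on the highest of the 16 somatic arrays by their normalized values, against 6.45% of all probes; they were both probes of Dnmt3b, both of Dnmt3l and the second of Uhrf1. The second probes of Dnmt3b and Uhrf1 entered the test only because the ESC array detected them. For the second Uhrf1 probe the fold over background was at least 1.56.

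Dnmt3b, a de novo methyltransferase of the early embryo, lies on chromosome 2. Its first probe stood at 12.90 in ESC and was detected on every other array, at 6.19 to 7.44, which made ESC 43.8-fold higher than the highest somatic array. In transgenic MEF it read 7.43, 7.42, 7.44 and 7.36 over the 4 times, in NSC 7.44, 7.08, 6.87 and 7.08, and in BMC 6.73, 6.66, 6.62 and 6.24. No cell type moved toward the ESC level. The lowest array was treated wild-type MEF at 6.19, against 7.18 untreated, a 1.99-fold lower level; 0.103% of all probes were at least 2-fold lower in that pair. The fitted changes were -0.07 ± 0.36 in MEF, -0.32 ± 0.36 in NSC and -0.50 ± 0.36 in BMC, with limma adjusted p-values of 0.942, 0.609 and 1.0. Net of the wild-type trend, the sign turned in MEF (0.92, limma adjusted p = 0.262) and in NSC (0.0499, limma adjusted p = 0.963).

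The second Dnmt3b probe, which targets another transcript of the gene, read 7.37 in ESC, at least 3.59-fold above every somatic array, none of which detected it. Its NSC values were 4.47, 4.52, 4.62 and 5.02, all below background, and the fitted change of 0.57 ± 0.20 missed the threshold (limma adjusted p = 0.0565). It passed with the authors' log2 values (1.59, limma adjusted p = 0.0204) and when no filter on dim probes was set (limma adjusted p = 0.0406).

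Dnmt3l, the catalytically inactive helper of the de novo enzymes, lies on chromosome 10. Its 2 probes read 13.48 and 13.42 in ESC, 185-fold and 177-fold above the highest somatic array. In transgenic MEF the first probe was detected at 0 h (5.92) and 6 h (5.71) and not at 12 h (5.28) or 24 h (5.07), so that 0 h was at least 1.38-fold above 24 h. Somatic levels of Dnmt3l were thus at the edge of detection wherever they could be read. The second probe read 5.55, 4.93, 4.89 and 4.44 on the same arrays and was detected on none of them. Wild-type MEF, at 4.55 and 4.68 for the first probe, and all 6 NSC arrays, at 4.29 to 4.62, did not detect it. Transgenic BMC detected it at 0, 6 and 12 h (5.78, 5.83 and 5.95) and not at 24 h (5.38).

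Both Dnmt3l probes passed the trend test in MEF, at -0.88 ± 0.24 (limma adjusted p = 0.0320) and -1.005 ± 0.216 (limma adjusted p = 0.0103). They are the 2 of 8 tested member probes that did, against 11.0% of all probes in either direction and 4.89% downward. Neither passed net of the wild-type trend (adjusted p = 0.225 and 0.231), without the array at 0 h (-0.79 and -0.69, adjusted p = 0.199 and 0.174) or without that at 24 h (-1.28 and -1.32, adjusted p = 0.251 and 0.185, all limma). The first probe also missed the threshold without the 6 h array (adjusted p = 0.0629), without background correction (-0.30, adjusted p = 0.212) and with the authors' values (-1.47, adjusted p = 0.111, all limma). No member probe passed in BMC by limma, where 0.772% of all probes did. There 1 of 8, the first probe of Uhrf1, had an unadjusted p under 0.05, as did 909 of all 15543 probes. Over the same 24 h the summed level of the 7 fibroblast markers in transgenic MEF went from 31770 to 19860 intensity units. The brightest, Thy1 and Col1a1, went from 13.91 to 13.49 and from 13.63 to 12.37, and Col1a2 and Pdgfrb fell as well. Col3a1 went the other way, from 9.67 to 10.10, as did Twist1, from 9.04 to 9.17. Postn also rose, from 4.68 (not detected) to 5.83. The part of these markers in the Dnmt3l values was not tested.

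Promoters of the 2 genes that set ESC apart are shown for their CpG content, with every CG in capitals, from RefSeq on build GRCm38.p6. Dnmt3b is chr2:153649199-153649498 and Dnmt3l is chr10:78042037-78042336, both on the plus strand.
Dnmt3b: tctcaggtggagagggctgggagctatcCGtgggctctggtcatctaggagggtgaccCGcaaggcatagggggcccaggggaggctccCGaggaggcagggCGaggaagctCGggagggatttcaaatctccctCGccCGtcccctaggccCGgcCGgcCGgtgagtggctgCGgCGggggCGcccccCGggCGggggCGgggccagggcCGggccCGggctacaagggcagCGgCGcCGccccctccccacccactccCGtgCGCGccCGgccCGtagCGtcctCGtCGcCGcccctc
Dnmt3l: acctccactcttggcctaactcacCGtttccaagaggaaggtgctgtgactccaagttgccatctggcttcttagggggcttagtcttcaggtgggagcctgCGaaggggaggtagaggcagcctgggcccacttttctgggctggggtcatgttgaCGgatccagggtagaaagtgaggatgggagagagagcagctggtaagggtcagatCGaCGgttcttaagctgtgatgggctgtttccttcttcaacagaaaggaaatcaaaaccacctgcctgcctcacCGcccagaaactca
The Dnmt3b promoter held 30 CG sites, more than 88.3% of all promoters of the same length. The Dnmt3l promoter held 6, more than 43.6%. It was the Dnmt3l start with the most CG sites, and the other annotated starts held 4 and 3. The relation of CG content to the ESC levels was not tested. The octamer ATGCAAAT, searched on both strands, is in 1.74% of promoters and was found in none of the 16 member promoters. Over all 17 arrays the genes most like Dnmt3b were Slc28a1 (Pearson correlation 0.979), Zfp473 (0.977) and Cldn6 (0.975), and those most like Dnmt3l were Slc52a3 (0.988), Dpp4 (0.983) and Cdc5l (0.980). These values rest largely on the single ESC array, without which Slc28a1 had 0.665 with Dnmt3b and Slc52a3 0.843 with Dnmt3l.

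Dnmt3a, the other de novo methyltransferase, was not well above background for either of its 2 probes on any array, ESC included, with values of 4.28 to 4.74. The 2 Tet3 probes likewise ran from 4.42 to 5.02. For these genes the arrays give no level and no change.

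**Figure D3:**
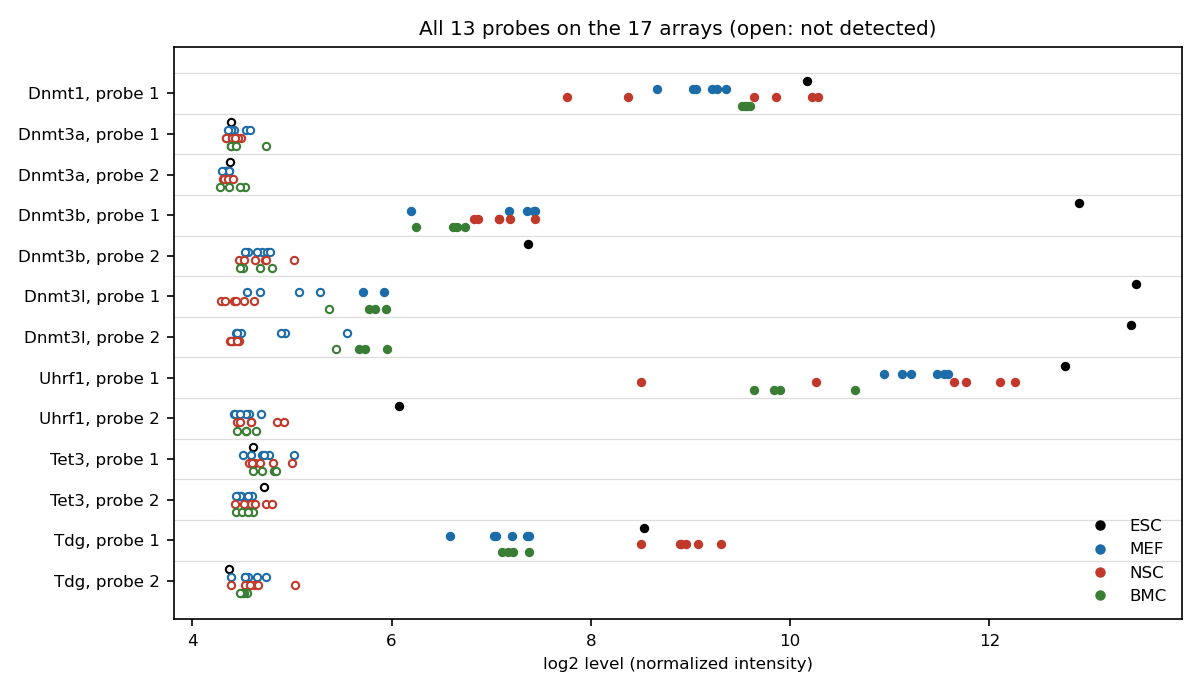
Log2 level of all 13 member probes on the 17 arrays, with 1 point per array, coloured by cell type with transgenic and wild-type arrays together, and open where the probe was not detected. Dnmt3b and Dnmt3l in ESC lie at 12.90 to 13.48, far right of their somatic points, while Dnmt3a, Tet3 and the second Tdg probe have open points only.

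Tdg, the glycosylase that removes oxidised methylcytosine, lies on chromosome 10 and read higher in NSC than in the other somatic cells, with and without Oct4. Its first probe was detected on all 17 arrays. Transgenic NSC read 8.90, 8.95, 8.89 and 8.51 and wild-type NSC 9.31 and 9.07. Transgenic MEF read 7.38, 7.36, 7.21 and 7.04, wild-type MEF 7.03 and 6.58, and transgenic BMC 7.38, 7.16, 7.22 and 7.11. All 6 NSC arrays lay above all 10 MEF and BMC arrays, and ESC stood at 8.53, next to the lowest NSC array. The share of all probes with this pattern was not counted. In the narrower comparison of 3 wild-type and 0 h NSC arrays with 3 such MEF arrays, 28.2% of all probes stood above without overlap. MEF and BMC overlapped. The second Tdg probe, which targets another transcript, was below background throughout.

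No trend of Tdg passed: the fitted change was -0.36 ± 0.23 in MEF (95% interval -0.85 to 0.14), -0.43 ± 0.23 in NSC (-0.92 to 0.07) and -0.22 ± 0.23 in BMC (-0.72 to 0.27), with limma adjusted p-values of 0.381, 0.216 and 1.0. Subtracting the wild-type trend turned the sign in MEF to 0.0864 (limma adjusted p = 0.948). The genes most like Tdg over 17 arrays were Rhot2 (0.978), Mcrs1 (0.977) and Dab1 (0.976, Pearson).

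Levels of several members also differed between NSC and MEF on the wild-type and 0 h arrays. The transgenic MEF array at 0 h is not free of Oct4: it detected Pou5f1 at 8.41, where wild-type MEF had 5.01 and 4.82, not detected. In the 3 such NSC arrays (transgenic 0 h and both wild-type arrays), Tdg was 9.10 ± 0.20 (SD, n = 3), against 6.995 ± 0.399 in the 3 MEF arrays of the same kind, a difference of 2.10. Dnmt1 was 9.93 ± 0.33 against 9.10 ± 0.10, and Uhrf1 11.9 ± 0.32 against 11.2 ± 0.27. These 3 probes did not overlap between the cell types, 3 of 8 tested member probes, where 28.2% of all probes stood above in NSC without overlap. One probe, the second of Dnmt3l, was below without overlap, as were 23.9% of all probes, but none of those 6 arrays detected it. The share is near the background, and 3 against 3 arrays from mixed genotypes and treatments were not tested.

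**Figure D4:**
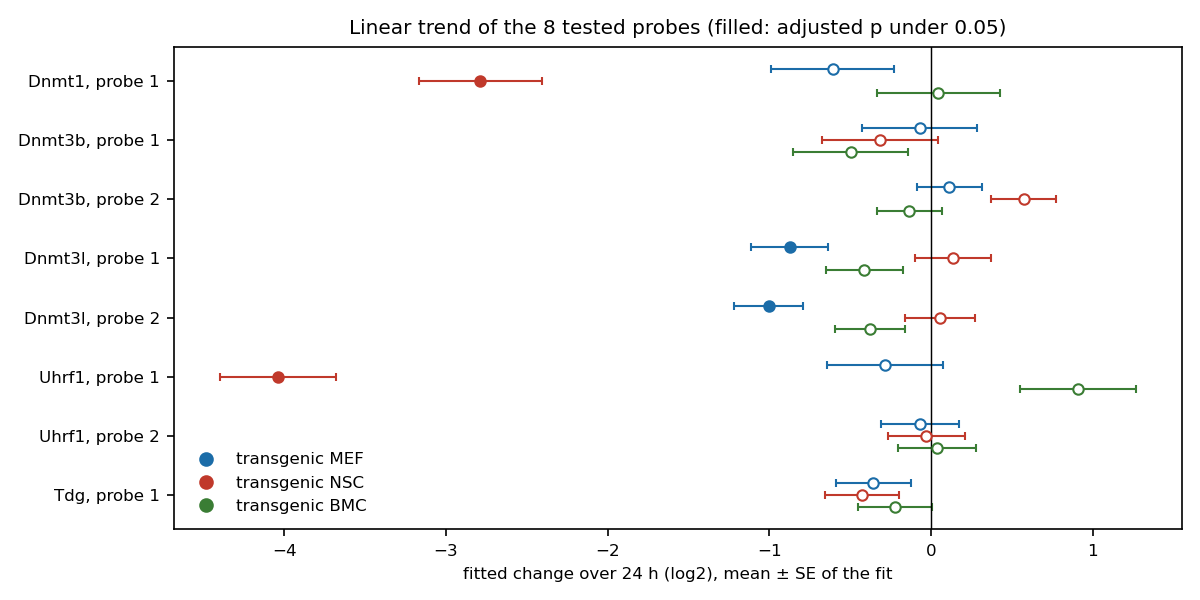
Fitted change over 24 h (log2, mean ± SE of the fit to 16 arrays) of the 8 tested member probes in transgenic MEF, NSC and BMC, filled where the adjusted p was under 0.05. The 4 filled points are Uhrf1 (-4.04) and Dnmt1 (-2.79) in NSC and the 2 Dnmt3l probes (-0.88 and -1.005) in MEF.

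Across cell types, 3 of 8 member probes had a trend that differed between NSC and MEF, against 11.0% of all probes. Besides Uhrf1 and Dnmt1, it was the second Dnmt3l probe (NSC minus MEF 1.06 ± 0.31, limma adjusted p = 0.0429), which was detected on none of these arrays and lost the call in 12 of the 16 fits that left out 1 array. Between NSC and BMC, 2 of 8 differed, against 10.7%. Between MEF and BMC none of the 8 did in limma, against 3.44% of all probes. At an unadjusted p under 0.05 1 of them did, the first probe of Uhrf1 (-1.19 ± 0.51, limma unadjusted p = 0.0350), as did 2622 of all 15543 probes.

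Genes around these enzymes were followed in 7 lists, by role, with the same test. Of their 55 tested genes, 7 passed in MEF (12.7%), 19 in NSC (34.5%) and 0 in BMC by limma, against 11.0%, 23.3% and 0.772% of all probes. At an unadjusted p under 0.05, 4 of the 55 were called in BMC, as were 909 of all 15543 probes. Net of the wild-type trend, 1 call was left in MEF (Cxxc4) and 6 in NSC (Cdca7, Cdkn1c, Cxxc4, Mest, Pcna and Ung). Calls that passed with any single array left out were Cxxc4 in MEF and Cdca7, Cxxc4, Mest, Pcna and Ung in NSC. The rest depend on 1 array or more, most often the 0 or 24 h array of the cell type concerned.

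Partners of the methyltransferases fell in NSC for 3 of 10 genes, against 11.4% of all probes, with 0 rising and a list median of -0.28. Cdca7, a cofactor of the chromatin remodeller that opens DNA for maintenance methylation, changed by -0.87, -2.18 and -3.47 at 6, 12 and 24 h (fitted -3.52 ± 0.34, limma adjusted p = 5.07e-05). Pcna, the replication clamp that holds Dnmt1 at the fork and is also on the S phase list, had a fitted change of -3.12 ± 0.53 (limma adjusted p = 0.00144). Trim28, a corepressor that protects imprints, had -0.72 (limma adjusted p = 0.0324). None of the 10 passed in MEF (median -0.05, 3 at an unadjusted p under 0.05) or BMC (median -0.04, 0 unadjusted) by limma. Of all 15543 probes, 3886 in MEF and 909 in BMC had an unadjusted p under 0.05.

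Partners of the Tet enzymes had 6 tested genes. In NSC 4 of them rose and 0 fell (median 1.04), against 11.9% of all probes higher and 11.4% lower. In MEF 1 rose and 2 fell (median -0.02), against 6.11% higher and 4.89% lower. Cxxc4, a CXXC protein that binds unmethylated CpG and Tet2, rose in both cell types, by a fitted 2.69 ± 0.31 in MEF (limma adjusted p = 0.000266) and 2.36 ± 0.31 in NSC (limma adjusted p = 0.000252). Its 24 h levels were 6.01-fold and 4.94-fold above 0 h, the wild-type pairs gave -0.27 and -0.22, and BMC gave -0.02 at 24 h with neither array detecting it. Gadd45g, a stress protein linked to demethylation, went in opposite directions, at -2.21 ± 0.44 in MEF (limma adjusted p = 0.00669) and 1.48 ± 0.44 in NSC (limma adjusted p = 0.0285). Its relative Gadd45b fell in MEF (-1.98, limma adjusted p = 0.00377), and Ogt, the O-GlcNAc transferase that binds Tet proteins, rose in NSC (1.10, limma adjusted p = 0.0212) with its rise coming at 24 h. Net of the wild-type trend, Gadd45g passed in neither MEF nor NSC (limma adjusted p = 0.225 and 0.142). Gadd45b in MEF (0.0845) and Ogt in NSC (0.125, both limma adjusted p) did not pass either. No contrast between MEF and NSC is given for Gadd45g.

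Base excision repair, the step after Tdg, had 4 of 8 genes falling in NSC, against 11.4% of all probes, and 0 rising, with a median of -0.47. The largest was Ung, the uracil glycosylase, at -4.02 ± 0.50 (limma adjusted p = 0.00019), with differences of -0.79, -2.69 and -3.88 at 6, 12 and 24 h and 1.24 in the wild-type pair. The endonuclease Apex1 (-1.27, limma adjusted p = 0.0145) and the nick sensor Parp1 (-0.86, limma adjusted p = 0.0188) changed less. In MEF 0 of 8 passed by limma, with Ung at -1.48 (adjusted p = 0.0791). At an unadjusted p under 0.05 it was 1 gene in MEF, against 3886 of all 15543 probes, and in BMC 0 of 8 passed either way.

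Readers and cofactor supply had 1 call each in NSC. Of 5 methyl-CpG readers (median 0.03 in NSC), Mbd3, a subunit of the NuRD corepressor, fell in NSC (-0.86, limma adjusted p = 0.00993) and the others did not pass in any cell type. Of 6 genes that supply methyl groups or the Tet cofactor, the aminotransferase Got1 fell in MEF (-0.99, limma adjusted p = 0.0339) and Ahcy, which clears S-adenosylhomocysteine, fell in NSC (-1.14, limma adjusted p = 0.0370). The median of the 6 was -0.52 in NSC, 0.01 in MEF and 0.03 in BMC, and Got1 (-0.79, limma adjusted p = 0.0529) and Idh3a, a subunit of a mitochondrial isocitrate dehydrogenase (-0.68, limma adjusted p = 0.0883), missed the threshold in NSC. The Ahcy differences from 0 h in NSC were -0.24, 0.04 and -1.19 at 6, 12 and 24 h, and the 24 h array did not detect it. Without that array its fitted change was 0.08 (limma adjusted p = 0.981).

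**Figure D5:**
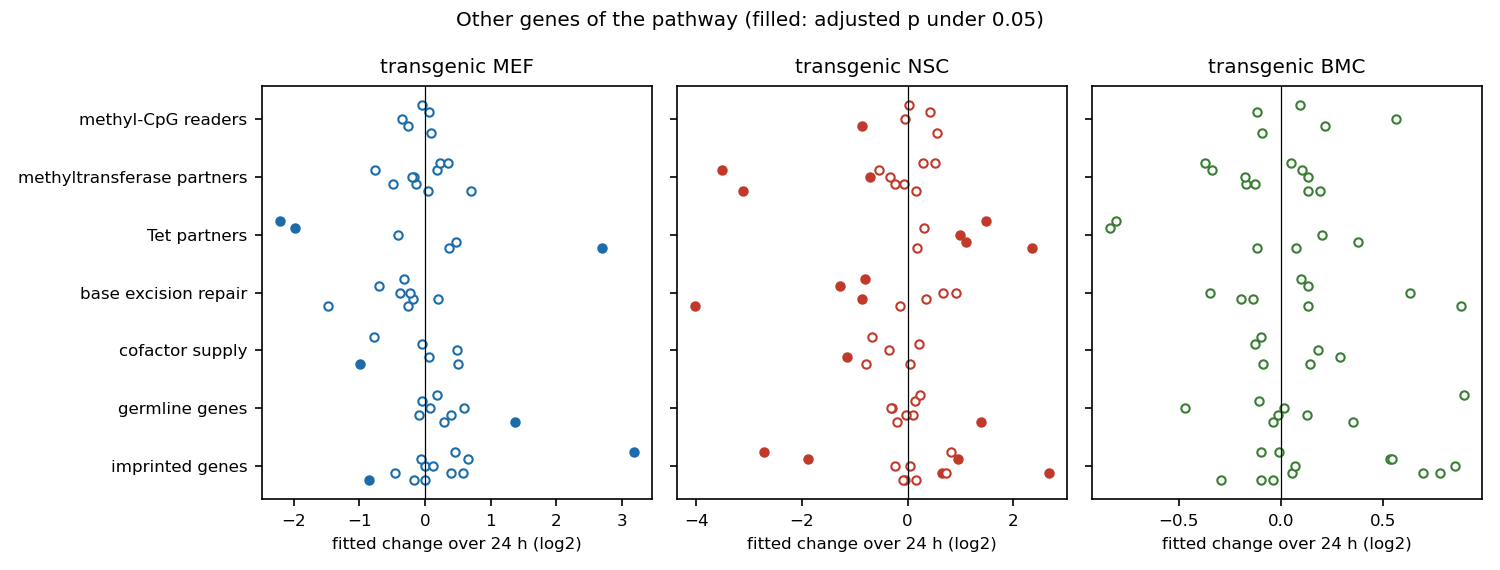
Fitted change over 24 h (log2) of the 55 tested genes of 7 lists around the enzymes, with 1 point per gene, filled where the adjusted p was under 0.05, and a different horizontal scale in each panel. In NSC the filled points far left are Ung, Cdca7 and Pcna at -4.02, -3.52 and -3.12, and in MEF the filled points far right are Nnat and Cxxc4 at 3.19 and 2.69.

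Germline genes that are normally kept silent by promoter methylation were mostly not detected on the somatic arrays. Of 14 with a probe, 8 were detected on at least 1 array and tested, and 7 of those 8 were below background at both 0 and 24 h in each of the 3 transgenic cell types. The exception in MEF and NSC was Brdt, a testis bromodomain protein, which was not detected at 0 h and was at least 1.26-fold higher at 24 h in MEF (fitted 1.37, limma adjusted p = 0.0268) and at least 1.63-fold higher in NSC (fitted 1.39, limma adjusted p = 0.0134). Neither Brdt call held net of the wild-type trend (adjusted p = 0.383 and 0.0548, limma). Dazl, Ddx4, Tex19.1, Stk31 and Taf7l were detected on the ESC array alone and entered the test only through it. The ESC level was 12.56 for Tex19.1, 10.62 for Dazl, 10.12 for Taf7l and 7.70 for Asz1.

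Imprinted genes, which carry a parental methyl mark, had 12 tested members. In NSC 3 rose and 2 fell with a median of 0.10, against 11.9% of all probes higher and 11.4% lower. In MEF 1 rose and 1 fell with a median of 0.06, against 6.11% higher and 4.89% lower. The largest rise was that of Nnat, a neuronal proteolipid, in MEF (3.19 ± 0.45, at least 7.25-fold, limma adjusted p = 0.000845, and 1.91 with an adjusted p of 0.365 without the 24 h array), where the summed level of 5 neuron markers went from 325 to 2443 intensity units over the same 24 h, with Map2 from 7.63 to 10.50 and Nefm from 4.73, not detected, to 9.54 (their part in the Nnat value was not tested). In NSC, the growth inhibitor Cdkn1c rose by a fitted 2.68 ± 0.65 (limma adjusted p = 0.0103), and without the 24 h array by 0.50 with an adjusted p of 0.909. Mest fell by 2.71 (limma adjusted p = 0.000273) and Peg10 fell by 1.89 (at least 1.83-fold, limma adjusted p = 0.00151). Snrpn (0.95, limma adjusted p = 0.0295) and Igf2r (0.65, limma adjusted p = 0.0406) also rose in NSC. Dlk1 fell in MEF (-0.85, limma adjusted p = 0.0226). The calls of Snrpn, Igf2r and Dlk1 were lost net of the wild-type trend (limma adjusted p = 0.261, 0.351 and 0.171). These are expression levels, and DNA methylation itself was not measured in any sample.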

How the data were processed

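Total RNA of 17 samples was read on Illumina BeadArrays, 1 array per condition. The deposited table gives, per the file headers, each probe's intensity on an array (linear, not normalized) beside its detection p-value. A second table by the authors has log2 values. The submitters' processing notes name BeadStudio 3.2, RMA and lumi without saying what each did. The authors' columns share quantiles (median 3.77) and rank probes as the intensities do (Spearman correlation 1). Background correction and quantile normalization were inferred from that and are not stated.

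Here limma 3.58.1 in R 4.3.3 was used for normexp background correction (offset 16, background estimated from detection p-values), followed by log2 and quantile normalization. Of 25697 probes, 23978 carry 1 gene symbol and 1719 none. The test covered 15543 probes, those detected (p under 0.01) on 1 or more arrays. Where the dimmer array did not detect a probe, its fold is a lower bound against the lowest detected signal of that array. The 16 somatic arrays were fitted with an intercept for each of 5 lines and a slope for each of 3 transgenic cell types (8 residual and 4.67 prior degrees of freedom). Wild-type slopes were set to 0. The number of arrays limits the precision.

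In simulated data of 15543 probes, trends of 1, 2 and 3 log2 units were found in 31.3, 94.0 and 98.5% of cases in NSC with 11 false calls, in 22.4, 92.5 and 98.5% in MEF with 8, and in 14.9, 94.0 and 100% in BMC with 9. These were exact straight lines with independent normal noise, in the same 66 or 67 probes per size in all 3 cell types. Curved courses and a larger share of changed probes were not simulated, so the rates hold for that setting only. The first probe of a gene is the one with the highest mean level. Of each list, genes past the threshold were named, at most the 3 largest per direction and cell type. The members, gene lists and tests were chosen with earlier results of these data known. Alternatives were a step, an offset of 50, no background correction, the authors' log2 values, no filter on dim probes, detection on 4 arrays, the wild-type trend subtracted, and each array left out. Promoters are RefSeq sequence, 250 bases before to 50 after a start. All array columns were used (0 left out).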

Additional observations from a re-analysis of the deposited data

Results flagged for a closer look

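Responses to induction that differed between cell types by a contrast in the limma fit, adjusted over all 15543 probes, are listed here. For Uhrf1, the change over 24 h in NSC (-4.04) differed from that in MEF (-0.28) by -3.75 (limma adjusted p = 0.00112) and from that in BMC (0.91) by -4.95 (limma adjusted p = 0.000264). For Dnmt1, the change in NSC (-2.79) differed from that in MEF (-0.61) by -2.18 (limma adjusted p = 0.0213) and from that in BMC (0.05) by -2.83 (limma adjusted p = 0.00612). The second Dnmt3l probe differed between NSC (0.06) and MEF (-1.005) by 1.06 (limma adjusted p = 0.0429), with none of the arrays of either cell type detecting it. Each cell type is 1 culture series, so cell type and culture cannot be told apart. The drop in NSC was present at both 12 and 24 h for Uhrf1 and Dnmt1, on 2 of 2 late arrays.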

How the results depend on the processing

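The step called 30 probes in MEF, 32 in NSC and 5 in BMC, against 1710, 3617 and 120 by the trend, and 0 member probes in MEF, in NSC, between NSC and MEF and between NSC and BMC, against 2, 2, 3 and 2 by the trend; the cause was not tested. Subtracting the wild-type trend, which leaves 6 residual degrees of freedom, gave 177 probes in MEF and 1301 in NSC, 0 member probes in MEF and 0 between NSC and MEF. The authors' log2 values gave 1065 probes in MEF and 54 in BMC, and 1 member probe in MEF; without background correction 1 member probe was called in MEF. The cause of these 2 shifts was not tested.

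With each array left out in turn, calls ran from 396 (without transgenic MEF at 24 h) to 2069 probes in MEF, from 555 (without NSC at 24 h) to 3740 in NSC and from 23 (without BMC at 24 h) to 130 in BMC. Without the 0 h arrays, MEF had 859 calls and BMC 73. Member probes called ran from 0 to 2 in MEF, from 1 to 3 between NSC and MEF and from 0 to 2 between NSC and BMC, and stayed at 2 in NSC.

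No value that passed the test changed sign for a member; those below turned in sign without passing either way, except Ogt and Ahcy, which passed with all arrays. Net of the wild-type trend, the Dnmt3b first probe became 0.92 in MEF and 0.0499 in NSC, Tdg 0.0864 in MEF and the second Dnmt3l probe -0.00486 in NSC. The step gave the second Uhrf1 probe 0.00537 in NSC and -0.000598 in BMC. With each array left out, the MEF values ran from -0.49 to 0.219 for Uhrf1, from -0.95 to 0.0938 for Dnmt1, from -0.10 to 0.0368 for Dnmt3b and from -0.23 to 0.129 for the second Uhrf1 probe. In NSC they ran from -0.10 to 0.527 for the second Uhrf1 probe, from -1.15 to 0.0604 for Dnmt3b, from -0.0703 to 0.0948 for the second Dnmt3l probe, from -0.101 to 1.78 for Ogt and from -1.43 to 0.0801 for Ahcy. In BMC they ran from -0.69 to 0.337 for Dnmt3l, from -0.0514 to 0.0581 for Dnmt1, from -0.20 to 0.238 for the second Dnmt3b probe and from -0.00723 to 0.195 for the second Uhrf1 probe. Of the other values set against the main setting, 1640 kept direction and side of the threshold, 197 lost the call, 13 moved and 2 gained it. No paired analysis was possible because each condition has 1 array and all carry the same replicate number.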
